A study of Rattus norvegicus with 5 samples.

Results

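The array labelled freshly isolated was set against the 4 arrays of cells at day 3, all from hepatic stellate cells taken from male Wistar rats aged 10 weeks. Of these 4, 2 arrays hold cells given calcitriol, the hormonal form of vitamin D, at 100 nM for 24 h, and 2 hold cells given vehicle. A single array carries the label of freshly isolated cells with no treatment. The comparison took in 5 of the 5 arrays of the study and asked which genes lay above or below the freshly isolated label on every cultured array, whatever the treatment. A probe entered if its detection p, which sets its signal against negative control beads, was under 0.01 on at least 1 array. Of 22523 probes 9737 entered, and 7183 of them carry the name of 1 of 7051 genes. The labels do not say whether the replicates were separate cultures or animals, or whether animals were pooled, so the p-values of limma reflect array-to-array spread alone, possibly technical spread. The labels name no culture surface or medium.

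Hepatic stellate cells store vitamin A as retinyl ester in lipid droplets beside the sinusoids of the liver. After liver injury, or when plated in culture, they lose these droplets, take on a contractile myofibroblast form and lay down fibrillar collagen, a change called activation. They also secrete chemokines that draw leukocytes, and preparations of them can hold Kupffer cells, which are liver macrophages, and sinusoidal endothelial cells.

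The mean signal of the cultured arrays ran from 608.2 to 817.3 intensity units and that of the array labelled freshly isolated was 854.8. On a cultured array 8316 to 9112 probes were detected, against 8476 on the array labelled freshly isolated, with a median of 40 or 41 beads per probe and a median bead standard error of 4.55% to 4.87% of the signal. Precision is limited by the number of arrays. The day 3 arrays A to D and the array L lay on the same chip, so that position on the chip and group cannot be told apart. All levels below are normalized log2 intensities, which are not compared between probes, and all differences are cultured arrays minus the array labelled freshly isolated.

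The vitamin D response went against the label of that array. Cyp24a1, which encodes the enzyme that inactivates calcitriol and is switched on by the vitamin D receptor, had levels of 8.81 and 8.90 on the calcitriol arrays and of 5.12 and 4.84 on the vehicle arrays, against 8.09 on the array labelled freshly isolated. It was detected there and with calcitriol, but on no vehicle array. The receptor gene Vdr had 6.42 and 6.57 with calcitriol and 5.63 and 5.13 with vehicle, against 6.64. Its vehicle values lay below the lowest detected levels of those arrays, 5.99 and 6.23. All cultured arrays were below the array labelled freshly isolated for Vdr in 8 of 9 other settings. Across the 9737 probes the array labelled freshly isolated had a Pearson correlation of 0.990 and 0.989 with the calcitriol arrays and of 0.980 and 0.981 with the vehicle arrays. These correlations are across probes of single arrays and describe those arrays only. For comparison, the 2 calcitriol arrays correlated at 0.992 and the 2 vehicle arrays at 0.990. It is therefore called the array labelled freshly isolated throughout.

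**Figure D1:**
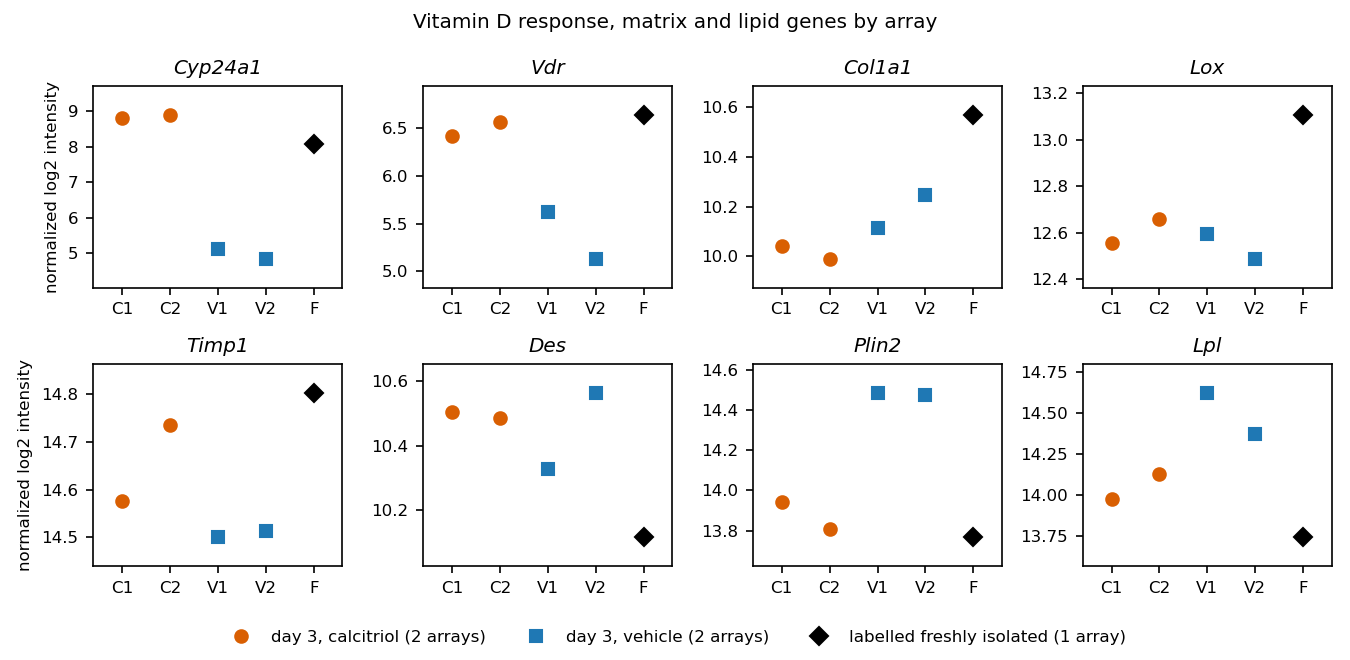
Normalized log2 intensity (vertical axis, a different range in each panel) of 8 genes on calcitriol arrays C1 and C2, vehicle arrays V1 and V2 and the array labelled freshly isolated, F. Each point is 1 array. Cyp24a1 on F, at 8.09, lies near the calcitriol arrays at 8.81 and 8.90 and far from the vehicle arrays at 5.12 and 4.84, and Col1a1 and Lox are highest on F.

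The type I collagen gene Col1a1 and the cross-linking enzyme gene Lox were not lower on that array. Col1a1, the alpha 1 chain of type I collagen, had 10.04 and 9.99 on the calcitriol arrays and 10.11 and 10.25 on the vehicle arrays, against 10.57. All 4 cultured arrays lay below, by 0.47 ± 0.15 on average (SE, 4 arrays against 1, limma adjusted p = 0.379). Lox, the lysyl oxidase that cross-links collagen, had 12.56 and 12.66 with calcitriol and 12.59 and 12.49 with vehicle, against 13.11, a gap of 1.37-fold to the nearest cultured array. Col1a2, the other chain of type I collagen, had cultured values of 13.73 to 14.17. The 13.75 of the array labelled freshly isolated lay inside that range, near its lower end. Col3a1, the type III collagen gene, lay between the treatments, at 8.48 and 8.44 with calcitriol and 9.06 and 9.16 with vehicle, against 8.55. Timp1, the main inhibitor of matrix proteases, was at 14.58 and 14.73 with calcitriol and 14.50 and 14.51 with vehicle, against 14.80, but lay inside the cultured range with scaling to the array median. Tgfb1, the main profibrotic cytokine gene, had cultured values of 11.49 to 11.96, which enclose 11.81. Desmin, Des, a filament protein of stellate cells, was detected on all 5 arrays and was higher on all 4 cultured arrays, at 10.50 and 10.48 with calcitriol and 10.33 and 10.56 with vehicle, against 10.12. The stellate cell gene Reln was detected on all 5 arrays too, while probes of Gfap and Ngfr were detected on none. No probe named Acta2, Lrat or Pdgfrb was found by the names used here.

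Markers of other cell types were measured on the same arrays. Of 49 hepatocyte genes with a named probe 39 were detected on no array, among them Alb, Ttr, Hnf4a, Cps1 and Cyp2e1. The summed linear level of the 49 genes was 8442 and 8541 on the calcitriol arrays and 12940 and 13190 on the vehicle arrays, against 8449. Of 40 macrophage genes 38 were detected on all 5 arrays, including Cd163, with a summed level of 274600 and 278900 with calcitriol and 265500 and 273600 with vehicle, against 290300. Of 31 sinusoidal endothelial genes 14 were detected on all 5 arrays and 9, Cdh5 among them, on none. Pecam1, Kdr and Stab2 have no probe under these names here. The summed level of the 31 genes was 14350 and 13720 with calcitriol and 15470 and 15100 with vehicle, against 12060. The biliary genes Krt19 and Epcam, the erythroid genes Hbb and Alas2 and the neutrophil gene S100a9 were detected on none. Of 10 biliary genes, however, 3 were detected on all 5 arrays, Krt7 among them, and 7 on none. Of 27 erythroid, platelet and granulocyte genes 1 was detected on all 5 and 21 on none. The granulocyte gene S100a8 had cultured values of 5.86 to 6.32, against 6.74. Of 26 lymphocyte genes 6 were detected on all 5 and 15 on none. In RNA of a mixed preparation, fewer cells of a type and less RNA per cell cannot be told apart.

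Of the 9737 probes 5921 (60.8%) had the array labelled freshly isolated inside the range of the 4 cultured arrays. All 4 cultured arrays lay above it for 1915 probes (19.7%) and below it for 1901 (19.5%). Most of these gaps were small. The gap is the log2 distance between the array labelled freshly isolated and the nearest cultured array, and its median size was 0.11, with a 90th percentile of 0.37. It reached 1.5-fold for 67 probes with higher cultures (0.688% of the probes) and 59 with lower cultures (0.606%), and 2-fold for 9 and 15. With scaling to the array median in place of quantile normalization, which put the median difference of all probes at -0.11, the cultures lay above for 932 probes and below for 2508, and the gaps of 1.5-fold numbered 44 higher and 79 lower. The balance between the directions therefore rests on the normalization. Of the 126 probes with a gap of 1.5-fold, 92 had one with either scaling and all 126 kept their side. A shift of -0.11 is small beside a gap of 1.5-fold, so keeping the side is no test of these gaps. Without vehicle array 2 the count of such gaps was 194.

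**Figure D2:**
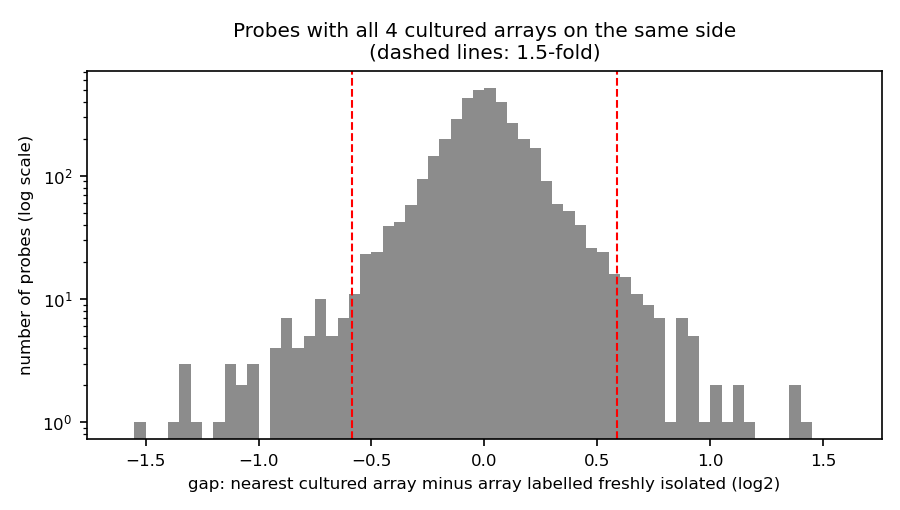
Number of probes (vertical axis, log scale) by gap, the nearest cultured array minus the array labelled freshly isolated in log2 (horizontal axis), for the 3816 probes with all 4 cultured arrays on the same side. The dashed lines stand at 1.5-fold, and 67 probes lie beyond the right one and 59 beyond the left one.

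For 103 of the 126 probes the gap was wider than the whole spread of the 4 cultured arrays, whose median range was 0.48 among these probes and 0.41 among all probes. That count follows in part from the choice of probes with a gap of 1.5-fold and is no test of the gaps. The bead standard error on the array labelled freshly isolated had a median of 4.90% and a highest value of 14.2% of the signal among the 126, which covers the error within that array and not between cell preparations. In limma's fit of 3 groups, with Benjamini-Hochberg adjustment over 9737 probes, 0 probes passed as higher and 1 as lower in cultures (0.0103%), with 929 at an unadjusted p under 0.05. An exact permutation of 1 array against 4 cannot go below a two-sided p = 0.2. The residual spread of this fit comes from the pairs of cultured arrays alone, since the lone array labelled freshly isolated is assumed to vary like them. The one that passed was Cela2a, a pancreatic elastase gene, at 9.15 and 9.21 on the calcitriol arrays and 4.82 and 4.76 on the vehicle arrays, against 9.55 (mean difference -2.56 ± 0.14, adjusted p = 0.0316). Its distance lay on the vehicle side, since the calcitriol arrays came within 1.27-fold, and without any 1 cultured array it did not pass. The genes below are therefore described by their values and gaps.

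The named genes with a gap of 1.5-fold comprised 36 higher in cultures (0.511% of 7051) and 40 lower (0.567%). Of the 36, 24 were detected on all 5 arrays and 12 were not detected on the array labelled freshly isolated, so that their gaps are to a value not above background. Of the 40, 16 were detected on all 5 arrays, 14 on some cultured arrays and 10 on none of them. A further 30 probes higher and 19 lower carry no gene name here.

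Among named genes higher in the cultures and detected on all 5 arrays, the chemokine gene Ccl20 had the widest gap. Ccl20, the ligand of the receptor CCR6, had levels of 8.35 and 8.05 on the calcitriol arrays and 7.91 and 7.54 on the vehicle arrays, against 6.16 on the array labelled freshly isolated. Every cultured array was at least 2.61-fold above, and the mean difference was 1.80 ± 0.21. The 6.16 stood at the lowest detected level of the array labelled freshly isolated, 6.15. Across the other settings the smallest gap of Ccl20 was 0.82 in log2. Ccl3, a leukocyte attractant made largely by macrophages, had 11.98 and 12.02 with calcitriol and 12.31 and 12.21 with vehicle, against 10.97, a gap of 2.02-fold. Ccl12, a monocyte attractant related to Ccl2, had 13.03 and 12.73 with calcitriol and 14.07 and 13.89 with vehicle, against 11.82, so that the treatments lay apart but both above (gap 1.87-fold). Cxcl6, a neutrophil attractant, had 8.74 and 8.62 with calcitriol and 9.18 and 8.53 with vehicle, against 7.73 (gap 1.74-fold). Cxcl1, another neutrophil attractant, had 14.20 and 14.04 with calcitriol and 14.05 and 13.86 with vehicle, against 13.15 (gap 1.63-fold). These 5 genes were picked for such gaps, so that no cultured array overlapped the array labelled freshly isolated. With scaling to the array median the gap of Cxcl6 and of Cxcl1 was under 1.5-fold.

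Of 37 measured genes of chemokines and inflammation the 4 cultured arrays were all above for 18 and all below for 3, where 19.8% and 19.7% of all named genes were so. The median difference of the list was 0.11, against 0.00 for all named genes. With scaling to the array median the counts were 11 and 4, where 9.57% of all probes lay above and 25.8% below. The median of the list was then 0.07 above that of all probes. In limma 0 of the 37 passed. Ccl4, another leukocyte attractant, was at 11.62 and 11.81 with calcitriol and 12.15 and 12.12 with vehicle, against 11.05 (gap 1.49-fold). Cxcl2 was at 10.41 and 10.10 with calcitriol and 10.75 and 11.01 with vehicle, against 9.55 (gap 1.46-fold). The interleukin gene Il1b was at 9.88 and 9.82 with calcitriol and 9.96 and 9.63 with vehicle, against 9.22 (gap 1.33-fold). These last 3 genes were named after their values were seen. The 3 genes with all cultured arrays below were Tlr4, Tlr2 and Ccl17, with gaps of 1.27-fold, 1.07-fold and 1.10-fold. Summed macrophage markers were, as given above, no higher in the cultures. Of 39 measured macrophage genes 14 had all cultured arrays above and 10 all below, or 8 and 9 with scaling to the array median. The median difference of these 39 genes was 0.11, against 0.00 for all named genes. With scaling to the array median it was 0.04 above that of all probes. The part of macrophages in the chemokine values was not tested.

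The promoters of Cxcl1 and Cxcl6, both on chromosome 14, are shown because a search of all promoter windows of these genes found a motif in them. The sequences are RefSeq's of build GRCr8, on the minus strand, and each holds the 130 bases before the gene's start, at chr14:17479322-17479451 for Cxcl1 and chr14:17596418-17596547 for Cxcl6. Capitals mark the only match in either window to the kB motif bound by NF-kB factors, searched on both strands as GGGAATTTCC with any base allowed at its position 5.
Cxcl1: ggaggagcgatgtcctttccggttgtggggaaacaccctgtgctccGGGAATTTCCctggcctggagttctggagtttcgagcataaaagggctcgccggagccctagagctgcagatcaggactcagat
Cxcl6: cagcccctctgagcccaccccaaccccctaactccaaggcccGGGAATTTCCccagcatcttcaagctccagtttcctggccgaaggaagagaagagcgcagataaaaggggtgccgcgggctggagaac
The match begins at position -84 in Cxcl1 and at -88 in Cxcl6, counted from the start. Of the 5 chemokine genes above, 4 matched the table of promoter windows of 300 bases and 2 held the motif, as did 102 of 27457 promoters (0.371%). Of the 36 genes higher in cultures 30 matched and 2 held it, the same 2 genes, and of the 40 lower genes 30 matched and 0 held it. The AP-1 motif TGANTCA had no match in either of these windows. It was in 2 of 30 windows of higher genes and 4 of 30 of lower genes, against 7.33% of all promoters. A match describes the letters of the window and not a bound site.

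Vascular genes were the next group. Endomucin, Emcn, a sialomucin of endothelial cells, had 7.40 and 7.26 on the calcitriol arrays and 7.18 and 7.33 on the vehicle arrays, and was not detected on the array labelled freshly isolated (5.74). The cultured mean was at least 2.20-fold higher, the bound being set by the lowest detected level on that array, and the difference had a limma adjusted p of 0.0751. Adgrl4, an adhesion receptor of endothelium, was at 8.09 and 7.83 with calcitriol and 7.94 and 7.70 with vehicle, against 6.94 (gap 1.69-fold). Egfl7, a secreted endothelial factor, was at 8.25 and 8.36 with calcitriol and 8.09 and 8.22 with vehicle, against 7.44 (gap 1.57-fold). Lyve1, a hyaluronan receptor of sinusoidal and lymphatic endothelium, was at 8.86 and 9.06 with calcitriol and 9.10 and 9.01 with vehicle, against 8.30 (gap 1.47-fold). Sox18, an endothelial transcription factor named after its value was seen, was at 6.95 and 6.89 with calcitriol and 6.89 and 7.30 with vehicle, against 6.37. By the way they were picked, no cultured array overlapped the array labelled freshly isolated for these 5 genes. The gaps of Adgrl4 and Egfl7 were under 1.5-fold without background correction and with scaling to the array median.

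Of 22 measured sinusoidal endothelial genes 14 had all 4 cultured arrays above and 0 had all below, against 19.8% and 19.7% of all named genes. The median difference was 0.59, and 0.51 with scaling to the array median. With that scaling 14 lay above and 2 below, against 9.57% and 25.8% of all probes. Of the 14 genes above, 6 were not detected on the array labelled freshly isolated. Among the 14 genes of the list detected on all 5 arrays 8 lay above and 0 below, where 20.1% and 20% of the named genes detected on all 5 arrays did, and their median difference was 0.54. In limma 0 of the 22 passed. The summed level of the 22 genes was 13673 and 13070 with calcitriol and 14852 and 14467 with vehicle, against 11449. The receptor genes Tek and Flt1, the nitric oxide synthase gene Nos3 and Vwf, which encodes von Willebrand factor, were among the 6 that were not detected there. Plvap, Cldn5, Icam2, Erg, Fli1, Esam, Tie1 and Bmp2 lay inside the cultured range, though of 2 probes of Tie1 the other had all cultured arrays above.

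**Figure D3:**
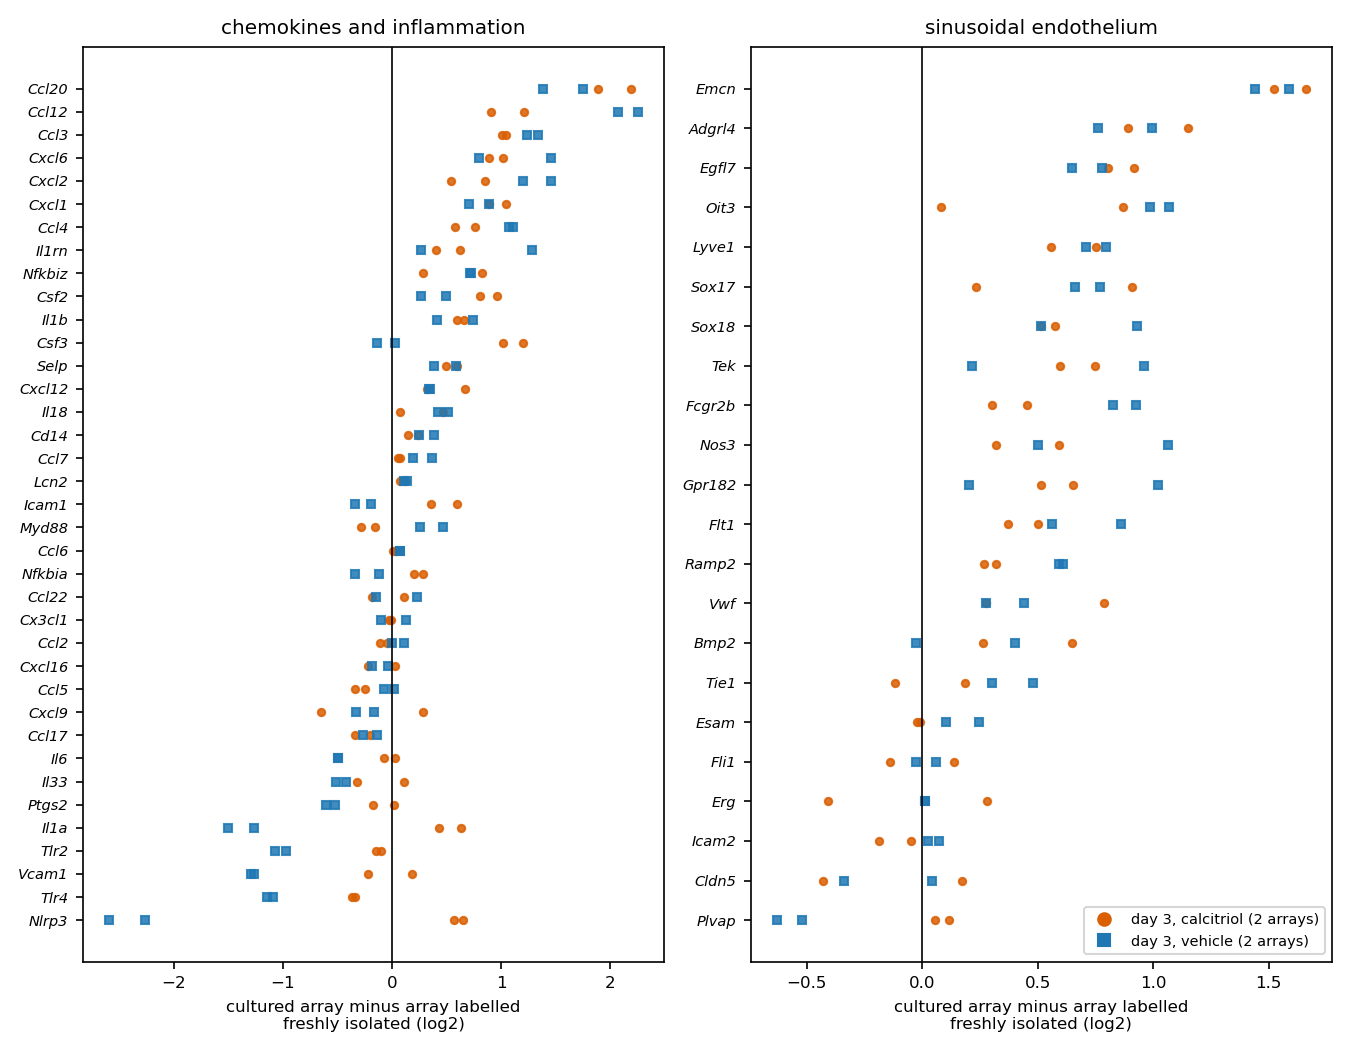
Each cultured array minus the array labelled freshly isolated in log2 (horizontal axis) for the 37 measured genes of chemokines and inflammation (left) and the 22 of sinusoidal endothelium (right), ordered by mean difference. Circles are calcitriol arrays and squares vehicle arrays. For 18 genes on the left and 14 on the right all 4 points lie right of 0.

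Some genes of vascular and other peptides had wide gaps in either direction. Apln encodes apelin, a vascular peptide, and had 7.72 and 7.82 with calcitriol and 7.50 and 7.43 with vehicle, against 6.28 (gap 2.22-fold, mean difference 1.33 ± 0.14, limma adjusted p = 0.0751). Adm encodes adrenomedullin, a vasodilator, and had 11.34 and 11.14 with calcitriol and 11.16 and 11.32 with vehicle, against 10.24 (gap 1.87-fold). Nppb, which encodes B-type natriuretic peptide, went the other way, with 8.02 and 7.92 with calcitriol and 7.90 and 8.35 with vehicle, against 9.40 (gap 2.08-fold). Stc1, which encodes the glycoprotein hormone stanniocalcin and was named after its values were seen, had 6.29 and 6.42 with calcitriol and 6.28 and 6.06 with vehicle, against 7.76 (gap 2.52-fold). Stc1 was detected on 3 cultured arrays, and its 6.06 on vehicle array 2 lay below the lowest detected level there, 6.23. For these 4 genes, picked for their gaps, the 2 treatments lay close together and apart from the array labelled freshly isolated.

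Ch25h, the cholesterol 25-hydroxylase that makes an oxysterol, had 7.59 and 6.70 with calcitriol and 11.25 and 10.78 with vehicle, and was not detected on the array labelled freshly isolated (6.08). Both groups were above, with a cultured mean of at least 7.62-fold, but the treatments lay far apart and calcitriol array 2 was close to the lowest detected level. The gap to that array was under 1.5-fold without background correction. Id2, an inhibitor of basic helix-loop-helix factors, followed the same order, at 11.87 and 11.94 with calcitriol and 13.49 and 13.46 with vehicle, against 11.29 (a gap just under 1.5-fold). Of the 126 probes with a gap of 1.5-fold, 7 also passed in limma for calcitriol against vehicle.

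Other genes higher in all cultures and detected on all 5 arrays came from immune, matrix and enzyme families. Fcer1a, the alpha chain of the high-affinity IgE receptor, was at 7.77 and 7.99 with calcitriol and 8.29 and 8.19 with vehicle, against 6.83 (gap 1.92-fold). Adamts1, a protease that cleaves proteoglycans, was at 8.96 and 9.17 with calcitriol and 8.68 and 8.78 with vehicle, against 7.97 (gap 1.64-fold), and was the 1 gene of 20 measured proteases and inhibitors with such a gap. Sh3bgrl1, Mnda, Car8, the inhibitory myeloid receptor gene Cd200r1 and B3galnt1 had gaps of 1.65-fold to 1.85-fold. Of 2 probes of Mnda 1 had the gap and the other lay inside the cultured range. The gaps of Car8, Cd200r1, B3galnt1 and Adamts1 were under 1.5-fold with scaling to the array median, and those of Sh3bgrl1 and Adamts1 without background correction. Beside Emcn and Ch25h, 6 genes were named from those detected on all 4 cultured arrays and not on the array labelled freshly isolated. These were Pik3c2a, Thnsl1, Meis2, Bcat1, Selenbp1 and Abhd3, with cultured means at least 1.47-fold to 1.63-fold higher. The nearest cultured arrays of Thnsl1 and Bcat1 came within 1.12-fold of the undetected value and that of Meis2 within 1.38-fold, and Thnsl1 had 7.97 on vehicle array 2, against 6.29 to 6.67 on the other cultured arrays. For Pik3c2a, Selenbp1 and Abhd3 the gap was under 1.5-fold without background correction. Cyp26b1, which degrades retinoic acid, was named after its values were seen and was at 9.62 and 9.73 with calcitriol and 9.74 and 9.51 with vehicle, against 8.90 (gap 1.53-fold, under 1.5-fold without background correction and with scaling to the array median).

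Among the genes that were lower in the cultures, Sema7a had the widest gap of those detected on all 5 arrays. It encodes a membrane-bound semaphorin that signals through integrins, and had 6.36 and 5.96 with calcitriol and 6.64 and 6.43 with vehicle, against 8.03. The 5.96 of calcitriol array 2 lay near the lowest detected level there, 5.90. Every cultured array was at least 2.63-fold below, and the mean difference was -1.69 ± 0.20 (limma adjusted p = 0.0751). The steroid enzyme gene Hsd3b1 had 7.13 and 7.29 with calcitriol and 6.74 and 7.09 with vehicle, against 8.31 (gap 2.03-fold). Hsd3b2 had 7.11 and 7.43 with calcitriol and 7.08 and 7.13 with vehicle, against 8.24 (gap 1.75-fold). These 2 genes are close paralogs, and their probes may share signal. Pgap6 was at 7.86 and 7.91 with calcitriol and 7.57 and 7.98 with vehicle, against 8.99 (gap 2.02-fold). Spsb1, an adaptor of ubiquitin ligases, was at 9.15 and 9.28 with calcitriol and 9.42 and 9.59 with vehicle, against 10.51 (gap 1.89-fold).

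Further genes were lower in all cultures. Fstl3, a follistatin-like protein that binds activin, was at 9.81 and 9.86 with calcitriol and 9.38 and 9.46 with vehicle, against 10.74 (gap 1.84-fold). Ccn4, a matricellular protein also called WISP1, was at 7.65 and 7.47 with calcitriol and 7.29 and 7.71 with vehicle, against 8.51 (gap 1.75-fold). Col7a1, the anchoring fibril collagen, was at 6.77 and 6.57 with calcitriol and 6.68 and 6.76 with vehicle, against 7.52 (gap 1.69-fold). Artn, a neurotrophic ligand, Enpp1, which makes pyrophosphate, Olfm1 and the protease inhibitor gene Tfpi2 had gaps of 1.63-fold to 1.67-fold. These genes were picked for lying outside the cultured range. Olr1, the scavenger receptor LOX-1, had 10.76 and 10.68 with calcitriol and 9.65 and 9.41 with vehicle, against 11.40 (gap 1.55-fold), and Slc7a7, an amino acid transporter, had a gap of 1.54-fold. The gaps of Col7a1, Artn and Olfm1 were under 1.5-fold without background correction, and that of Slc7a7 with scaling to the array median.

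**Figure D4:**
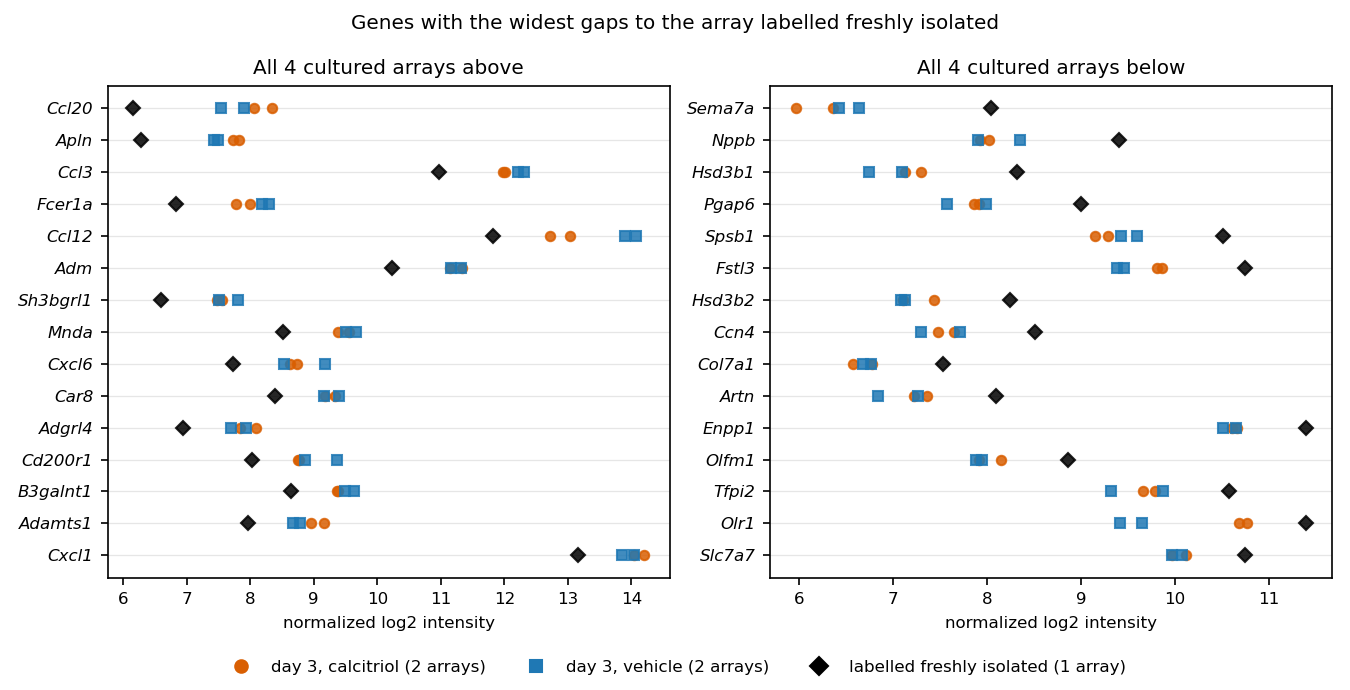
Normalized log2 intensity (horizontal axis) on each array of the 15 genes with the widest gaps in either direction among genes detected on all 5 arrays. Circles are calcitriol arrays, squares vehicle arrays and diamonds the array labelled freshly isolated. By the choice of genes the diamond lies outside the 4 cultured points in every row, by 2.61-fold for Ccl20 and 2.63-fold for Sema7a.

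Several genes were detected on the array labelled freshly isolated and on no cultured array. Htr2b, a serotonin receptor, had cultured values of 5.29 to 5.76, against 6.89, which puts it at least 1.79-fold lower in the cultures. Lcn12, a lipocalin that binds retinoids, had cultured values of 5.14 to 5.35, against 6.88, and was at least 1.78-fold lower. Both had a limma adjusted p of 0.0751. Spag1, Lypd3, Ankra2, the glucagon receptor gene Gcgr, Gldn and Ust were at least 1.30-fold to 1.54-fold lower. Wnt11, a secreted Wnt ligand, was named after its values were seen and had cultured values of 4.96 to 5.31, against 6.35. Spink8, also named after its values were seen, was detected on 3 cultured arrays, at 6.08 and 6.08 with calcitriol and 6.29 and 6.15 with vehicle, against 7.64 (gap 2.54-fold). These levels lie near the detection limit, and without background correction the gaps of these genes, Lcn12 and Spink8 apart, were under 1.5-fold.

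Of the lists of activation and quiescence, those of matrix and contractile genes stood close to the background of all genes. Of 32 measured matrix genes 6 had all cultured arrays above and 8 all below, with a median difference of 0.00 and no gap of 1.5-fold. With scaling to the array median the counts were 1 and 12, where 9.57% of all probes lay above and 25.8% below. The median of the matrix genes was then 0.05 below that of all probes. Loxl1 and P4ha1, which act on elastin and on collagen chains, lay below by 1.16-fold and 1.11-fold. Of 2 probes of Loxl1, 1 lay below and the other inside the cultured range. Of 26 contractile genes 6 lay above and 4 below, Csrp2, a LIM protein of stellate cells, being lower in cultures by a gap of 1.31-fold. Of 24 genes of quiescence and retinoid storage 6 lay above and 2 below (25% and 8.33%, against 19.8% and 19.7% of all named genes). Their median difference was 0.13, and that of the contractile genes 0.07. With scaling to the array median these counts were 2 and 4 for the contractile genes and 5 and 3 for the quiescence genes. The medians with that scaling were 0.04 and 0.16 above that of all probes, in the same order. Lpl, the lipoprotein lipase, had 13.98 and 14.13 with calcitriol and 14.62 and 14.37 with vehicle, against 13.74, and Plin2, a lipid droplet coat protein, had 13.94 and 13.81 with calcitriol and 14.48 and 14.47 with vehicle, against 13.77. Dgat1, which makes triglyceride, was lower in the cultures, at 10.40 and 10.52 with calcitriol and 10.39 and 10.42 with vehicle, against 10.79. In limma 0 genes of these 3 lists passed.

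**Figure D5:**
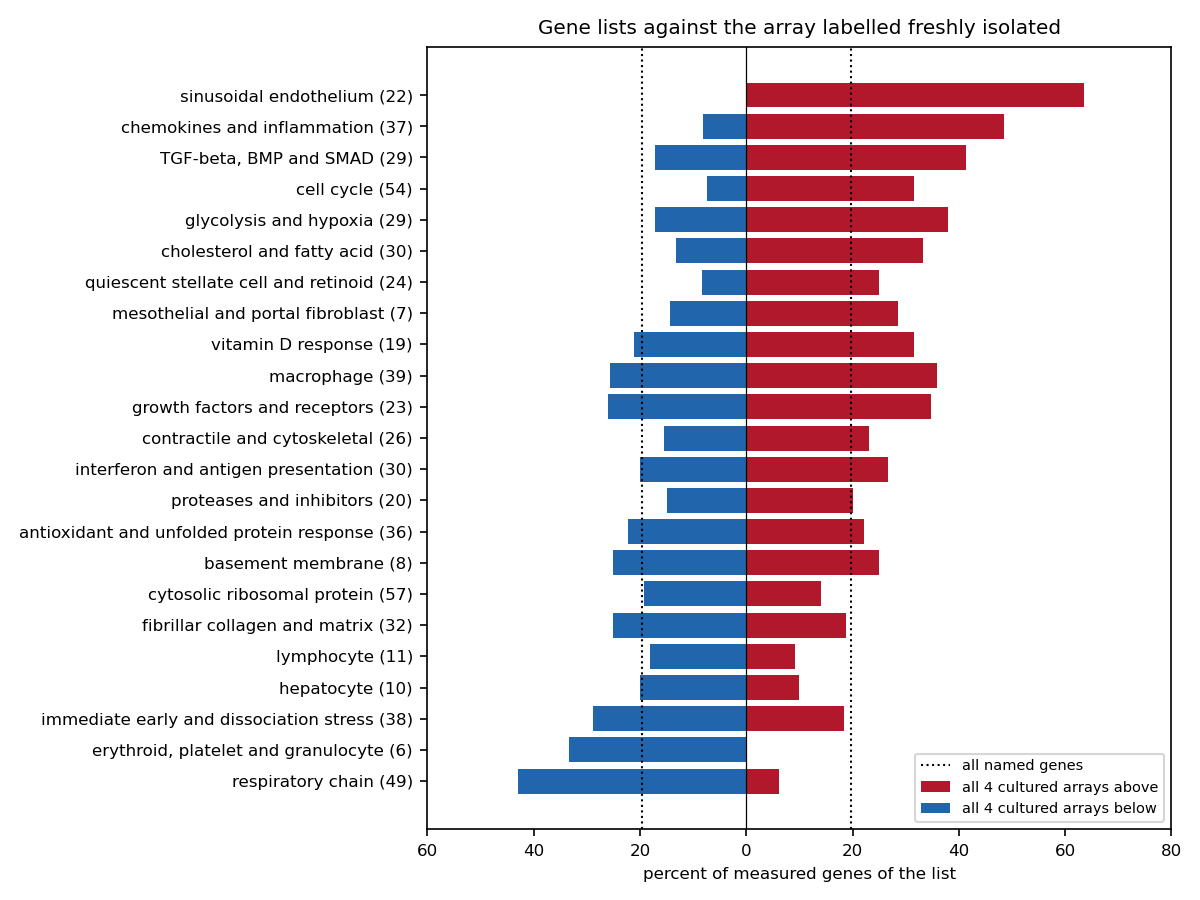
Percent of the measured genes of each list (their number in parentheses) with all 4 cultured arrays above (right) or below (left) the array labelled freshly isolated, for lists of 6 or more measured genes. Dotted lines mark all named genes, 19.8% above and 19.7% below. Sinusoidal endothelium reaches 63.6% above and the respiratory chain 42.9% below.

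In the TGF-beta and BMP pathway, ligands signal through receptor kinases and SMAD factors, and inhibitory SMADs and ID proteins are among the targets. Of 29 measured genes 12 lay above and 5 below (41.4% and 17.2%, against 19.8% and 19.7% of all named genes). With scaling to the array median 8 lay above and 8 below, where 9.57% and 25.8% of all probes did. Of these 29, 26 were detected on all 5 arrays, with 10 above and 5 below. Smurf2 and Smad5 also had all cultured values above, but the array labelled freshly isolated had no detected signal of either, and Smurf2 was detected on 1 cultured array only, so that no fold is given. Smad7, the inhibitory SMAD induced by TGF-beta, was lower in the cultures, at 8.37 and 8.74 with calcitriol and 8.21 and 8.47 with vehicle, against 9.17 (gap 1.35-fold). Pmepa1, another inhibitor of that pathway named after its values were seen, was at 13.93 and 13.97 with calcitriol and 13.35 and 13.67 with vehicle, against 14.56 (gap 1.51-fold, under 1.5-fold without vehicle array 2 and with scaling to the array median). Among growth factors and their receptors 8 of 23 lay above and 6 below, or 5 and 5 with scaling to the array median. The PDGF receptor gene Pdgfra was at 8.10 and 7.82 with calcitriol and 8.17 and 8.02 with vehicle, against 7.31 (gap 1.42-fold), and the angiotensin receptor gene Agtr1a had a gap of 1.36-fold in the same direction. Vegfa, the endothelial growth factor gene, was lower in the cultures, at 7.91 and 7.82 with calcitriol and 7.52 and 7.62 with vehicle, against 8.36 (gap 1.36-fold). In limma 0 genes of these lists passed.

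Respiratory chain genes leaned to the lower side in the cultures, by small amounts. Of 49 measured genes 3 had all cultured arrays above and 21 all below, with a median difference of -0.13. These are 6.12% and 42.9%, against 19.8% and 19.7% of all named genes. With scaling to the array median the counts were 0 and 25, where 9.57% of all probes lay above and 25.8% below. The median of the list was then 0.18 below that of all probes. The summed linear level of the list was 317030 and 307714 with calcitriol and 285390 and 288984 with vehicle, against 321313. The vehicle sums thus lay further below than the calcitriol sums. Atp5mc3 had the widest gap, 1.48-fold (at least 1.5-fold with scaling to the array median), but was dim and detected on 3 cultured arrays. The widest gap among genes at high level was that of Atp5mc2, a subunit of ATP synthase, at 12.48 and 12.18 with calcitriol and 12.37 and 12.45 with vehicle, against 12.72 (1.18-fold). Cox6c, Ndufs7 and Cox5b, subunits of other complexes of the chain, had gaps of 1.16-fold, 1.14-fold and 1.12-fold. Of 57 cytosolic ribosomal protein genes 8 lay above and 11 below, or 2 and 15 with scaling to the array median. Among 54 cell cycle genes 17 lay above and 4 below, but 4 and 7 with scaling to the array median, so that no direction is given. In limma 0 genes of these 3 lists passed.

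Stress and metabolic lists held single genes with wide gaps. Dusp2, a phosphatase of MAP kinases, was at 6.43 and 6.45 with calcitriol and 6.46 and 6.22 with vehicle, against 7.33 (gap 1.82-fold, under 1.5-fold without background correction), and was the 1 of 38 immediate early and dissociation stress genes with such a gap. In that list 7 lay above and 11 below, or 3 and 10 with scaling to the array median. Klf4, a transcription factor also among vitamin D response genes, was at 10.33 and 10.49 with calcitriol and 10.53 and 10.71 with vehicle, against 9.80 (gap 1.45-fold). Tissue digestion is known to induce Fos and Egr1. Fos was not detected on all 5 arrays, and was lower in the cultures by a gap of only 1.04-fold. The cultured values of Egr1, 8.79 to 9.32, enclose the 9.17 of the array labelled freshly isolated. Of 36 antioxidant and unfolded protein genes 8 lay above and 8 below (1 and 9 with scaling to the array median), Herpud1, a gene of endoplasmic reticulum stress, being lower in the cultures by a gap of 1.40-fold. Of 30 cholesterol and fatty acid genes 10 lay above and 4 below (4 and 3 with that scaling), the sterol reductase gene Dhcr7 being higher at 8.24 and 8.24 with calcitriol and 8.21 and 8.19 with vehicle, against 7.79. Of 29 genes of glycolysis and hypoxia 11 lay above and 5 below (6 and 6 with that scaling), with Ndrg1 above by a gap of 1.33-fold. Of 30 interferon genes 8 lay above and 6 below (2 and 5 with that scaling), and of 19 vitamin D response genes 6 above and 4 below (2 and 3 with that scaling), with G0s2 lower in the cultures by a gap of 1.41-fold. In limma 0 genes of these lists passed.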

How the data were processed

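The authors hybridised biotinylated cRNA to 5 Illumina arrays and, per the submitters' processing notes, used GenomeStudio 2011.1. The deposited table gives per probe and array a mean bead intensity, its bead standard error, the bead number and a detection p-value, per the file headers. The deposited value table holds linear intensity values, quantile normalized and without background correction, as set against that table. Columns of per-sample values left unused numbered 0.

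The intensities were corrected and quantile normalized with limma's neqc (limma 3.58.1, R 4.3.3, offset 16) and taken to log2, which compresses dim signals. Names came from the platform annotation, which names 13793 probes, and 99.7% of its gene identifiers were found in RefSeq's table of GRCr8. For 126 genes with several probes the probe of highest mean stands for the gene. A model with a mean for each of calcitriol, vehicle and the array labelled freshly isolated was fitted with limma (2 residual degrees of freedom, a prior of 3.65). The mean of both cultured groups was set against that array, with Benjamini-Hochberg adjustment over 9737 probes and a threshold of 0.05. The fit was also run on simulated data. There the array labelled freshly isolated was given the spread of the cultured arrays. The run therefore cannot test whether that array varies like them. An undetected probe has a bound at the higher of its own value and the lowest detected signal of the array.

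The genes named are the 15 widest gaps in each direction among genes on all 5 arrays, up to 8 in each direction undetected on the other side, up to 4 of each list and a fixed set of stellate cell genes. Members and lists were chosen with earlier results of these data known. Alternatives were other normalizations, filters, gap sizes, fits and leaving out each cultured array.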

Additional observations from a re-analysis of the deposited data

Results flagged for a closer look

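Among the 145 genes followed by name through the alternatives, the distance to the array labelled freshly isolated differed between the treatments for 7, by limma's test of calcitriol minus vehicle with adjustment over 9737 probes. The calcitriol arrays were lower than the vehicle arrays for Ccl12 (log2 difference -1.10, adjusted p = 0.0414), Ch25h (-3.87, adjusted p = 0.00845), Id2 (-1.57, adjusted p = 0.00808) and the leukocyte phosphatase gene Ptprc (-1.23, adjusted p = 0.0380), with both treatments above that array. They were higher for Olr1 (1.19, adjusted p = 0.0245) and Cela2a (4.39, adjusted p = 0.000619), with both treatments below it, and for Cyp24a1 (3.87, adjusted p = 0.00153), with calcitriol above and vehicle below. Outside those 145, Pacsin1, which has a gap of 1.90-fold, was also higher with calcitriol than with vehicle (adjusted p = 0.0234).

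For 3 more of the 145 genes both arrays of a treatment lay on the opposite side of the array labelled freshly isolated from both arrays of the other treatment, while the difference between treatments missed the threshold in limma. These were Col3a1 (calcitriol minus vehicle -0.65, adjusted p = 0.0883), Tgfb1 (-0.31, adjusted p = 0.374) and Egr1 (0.44, adjusted p = 0.199). Other genes outside the 145 show such positions too.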

How the results depend on the processing

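The 3816 probes with all 4 cultured arrays on the same side became 8648 with no filter on dim probes and 4236 to 5086 without 1 cultured array. The 126 gaps of 1.5-fold became 56 without background correction and with the deposited normalized values, 74 among probes detected on all 5 arrays, 136 to 194 without 1 cultured array, 678 at 1.2-fold and 24 at 2-fold. The 1 probe that passed in limma became 88 with scaling to the array median (24 higher, 64 lower), 165 without background correction and with the deposited normalized values (72 and 93 in both), 65 among probes detected on all 5 arrays (33 and 32), 236 with a variance trend (117 and 119), 149 for the vehicle arrays alone and 929 at an unadjusted p under 0.05. It became 0 without any 1 cultured array (735 to 1135 at an unadjusted p under 0.05 in limma), 0 with the cultures as 1 group (486) and 0 for the calcitriol arrays alone (649). The replicate block, by numbers that the labels share between treatments but that the data do not pair (correlation of deviations -0.11), gave 2, and the crossed pairing, added after seeing the data, gave 0 (1085 at an unadjusted p under 0.05). By construction the counts of probes on the same side and of gaps rise with a looser filter or gap size and fall with a stricter one. Leaving out a cultured array narrows the cultured range, which tends to raise them too. The cause of the other changes was not tested. Of 139 named genes beyond all 4 cultured arrays 125 kept their side under every setting where they could be measured. Of 52 with a gap of 1.5-fold 52 did, while 22 kept the gap in each. For genes with such a gap the side is largely fixed in advance where only the filter changes or a cultured array is left out. Keeping the side is therefore no test of these genes. Of 240 list medians 34 moved by more than the spread. Probes near background limit the dim genes.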
